A study of Mus musculus with 12 samples.

Results

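The circadian clock and its PAR-bZIP output are described here in mouse liver through 10 genes: Arntl, Clock, Npas2, Per1, Per2, Per3, Nr1d1, Dbp, Tef and Hlf. They were chosen by name, as 10 of the 18193 genes tested, and 26 of the 45101 probe sets on the array named one of them as the only gene. Each gene is read through its brightest probe set over the 12 arrays unless another is named. Liver RNA of male mice was measured on 12 one-colour Affymetrix arrays, 3 in each of 4 groups. The groups were Nrf2 null with CDDO-Im, Nrf2 null with vehicle, wild type with CDDO-Im and wild type with vehicle. Nrf2, encoded by Nfe2l2, is a transcription factor that switches on antioxidant and detoxification genes, and CDDO-Im is a synthetic triterpenoid known to activate it. CDDO-Im was given by gavage at a dose labelled 30 uM/kg and the time is labelled 6 hours, with vehicle by the same route. Strain, age, hour of the day and the number of animals behind each array are not given in the sources used here. The p-values therefore measure the spread between these samples, which may be technical.

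The clock is a feedback loop of transcription. BMAL1, the product of Arntl, pairs with CLOCK or NPAS2 and switches on genes through the E-box, among them the Per genes, Nr1d1 and Dbp. PER proteins, with CRY proteins, block that activation, and REV-ERB alpha, the product of Nr1d1, represses Arntl. DBP, TEF and HLF are PAR-bZIP transcription factors that bind D-boxes and carry the rhythm to detoxification and metabolic genes of the liver. Most of these transcripts change strongly over the day in mouse liver.

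The arrays were checked before the clock genes were read. Nfe2l2 read 4.78, 4.96 and 4.93 in Nrf2 null with CDDO-Im and 4.83, 4.87 and 4.44 in Nrf2 null with vehicle, against 8.37 to 9.14 in wild type with CDDO-Im and 8.51 to 8.69 in wild type with vehicle (log2 intensity). Nfe2l2 was thus lower on each of the 6 null arrays than on any wild type array. Nqo1, a known Nrf2 target, differed between CDDO-Im and vehicle by 0.04 in Nrf2 null livers and by 2.07 in wild type livers. Array medians lay between 5.77 and 5.83, and the mean of 9 measured hepatocyte markers between 12.93 and 13.30. The mean of 9 measured pancreatic acinar markers, from cells that make digestive enzymes, lay at 6.54 to 6.68 in Nrf2 null with CDDO-Im, against 6.51 to 9.03 with vehicle, and at 6.36 to 6.57 in wild type with CDDO-Im, against 6.37 to 10.70 with vehicle. The high values belonged to Nrf2 null vehicle replicate 2 and wild type vehicle replicate 3, on which none of the 9 lay below the array median. The titles of all 6 vehicle arrays carry the digit 2 in brackets, which no CDDO-Im title carries, so its unstated meaning and the treatment cannot be told apart.

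Promoter sequence is shown for Dbp, Tef, Hlf, Per1 and Per3, the 5 genes whose CDDO-Im arrays all lay above the vehicle arrays in Nrf2 null livers. Each is the 250 bases before a gene start in RefSeq's mouse annotation (build GRCm38.p6), written 5′ to 3′ on the gene's strand. Capitals mark matches to the motifs searched. Dbp is at chr7:45704997-45705246 on the plus strand, Tef at chr15:81802423-81802672 on the plus strand and Hlf at chr11:90390918-90391167 on the minus strand. Per1 is at chr11:69098699-69098948 on the plus strand and Per3 at chr4:151044666-151044915 on the minus strand.
Dbp: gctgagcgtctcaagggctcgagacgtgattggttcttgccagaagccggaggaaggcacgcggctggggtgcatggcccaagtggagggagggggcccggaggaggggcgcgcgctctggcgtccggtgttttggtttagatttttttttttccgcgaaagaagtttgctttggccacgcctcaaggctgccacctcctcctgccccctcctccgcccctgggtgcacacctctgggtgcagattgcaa
Tef: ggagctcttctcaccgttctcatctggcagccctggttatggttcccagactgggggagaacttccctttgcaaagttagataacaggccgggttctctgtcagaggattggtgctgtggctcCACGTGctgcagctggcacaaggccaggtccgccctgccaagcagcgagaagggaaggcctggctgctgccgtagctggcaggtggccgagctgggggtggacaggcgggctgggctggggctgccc
Hlf: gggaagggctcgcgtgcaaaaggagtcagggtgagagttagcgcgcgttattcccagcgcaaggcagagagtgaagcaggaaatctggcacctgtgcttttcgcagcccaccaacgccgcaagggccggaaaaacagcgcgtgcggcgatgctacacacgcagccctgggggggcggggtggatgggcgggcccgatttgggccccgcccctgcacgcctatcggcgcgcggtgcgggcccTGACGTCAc
Per1: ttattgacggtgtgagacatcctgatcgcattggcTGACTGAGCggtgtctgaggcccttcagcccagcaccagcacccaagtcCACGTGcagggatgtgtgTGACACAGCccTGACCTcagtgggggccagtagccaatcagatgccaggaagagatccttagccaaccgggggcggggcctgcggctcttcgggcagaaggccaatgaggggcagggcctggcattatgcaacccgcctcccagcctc
Per3: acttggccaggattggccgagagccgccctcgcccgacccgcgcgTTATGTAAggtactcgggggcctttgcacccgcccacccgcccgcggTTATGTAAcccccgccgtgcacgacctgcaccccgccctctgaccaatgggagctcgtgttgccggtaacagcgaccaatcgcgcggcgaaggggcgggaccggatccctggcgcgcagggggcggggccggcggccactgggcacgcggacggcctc
The motifs were searched on both strands. They were the E-box CACGTG, the D-box TTATGTAA and its palindrome TTACGTAA, the ROR and REV-ERB core AGGTCA, the cAMP response element TGACGTCA, the antioxidant response element core TGACNNNGC bound by Nrf2, and the palindromic glucocorticoid response element. The E-box stood in the printed windows of Per1 and Tef, beginning 166 and 127 bases before the start, and in a second Tef window. It was found in 6.02% of all 32851 promoter windows of this length. The Per3 window held the D-box 2 times, beginning 205 and 158 bases before the start, where 0.819% of all windows hold any. The Hlf window held the cAMP response element 9 bases before the start (1.55% of all windows). Per1 had 2 matches to the antioxidant core (10.2% of all windows) and 1 to the ROR and REV-ERB core (14% of all windows). No motif matched in the Dbp window, and the palindrome and the glucocorticoid element matched in none of the 14 windows of the 9 genes that had one.

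Dbp and Hlf were higher with CDDO-Im than with vehicle in Nrf2 null livers. Of the 10 genes these 2 passed limma's test across all genes at a Benjamini-Hochberg adjusted p under 0.05, both higher, where 3.58% of all genes tested were called higher and 5.9% in either direction. In wild type livers 0 of the 10 passed, and 0 had an unadjusted p under 0.05, where 1.82% and 13.6% of all genes did. The median difference of the 10 was 0.29 log2 units in Nrf2 null livers (-0.00 over all genes) and -0.01 in wild type livers (0.01 over all genes). Fewer cells of a type and less RNA per cell cannot be told apart in RNA of whole liver. Some cell type markers also differed between CDDO-Im and vehicle, given first for Nrf2 null livers. The mean of 7 measured neutrophil markers lay at 6.18 to 6.29 in Nrf2 null with CDDO-Im, against 6.46 to 6.64 with vehicle, and 2 of the 7, S100a8 and S100a9, fell, while 4 of the 7 were above 0 and the median difference was 0.02. The mean of 4 measured adipocyte markers lay at 5.83 to 5.91 with CDDO-Im, against 7.16 to 7.39 with vehicle, where Fabp4 fell by 5.74 and Adipoq differed by -0.01. Of 9 Kupffer cell markers 8 were higher with CDDO-Im, with a median difference of 0.34 and 0 called, and their mean lay at 8.56 to 8.69, against 7.89 to 8.63 with vehicle. Of 8 endothelial markers 1 rose, Oit3 by 0.63, and of 9 hepatocyte markers Fgb alone fell by 0.46. Markers also differed with CDDO-Im in wild type livers, where 0 of the 10 clock genes passed. There 1 of 4 adipocyte and 1 of 9 hepatocyte markers were called lower, and 2 of 8 endothelial markers higher. Of 9 Kupffer cell markers 7 were above 0, with a median of 0.22 and 0 called. Of 7 neutrophil markers 4 were above 0 and 0 were called. The part of these cells in the results on clock genes was not tested.

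**Figure D1:**
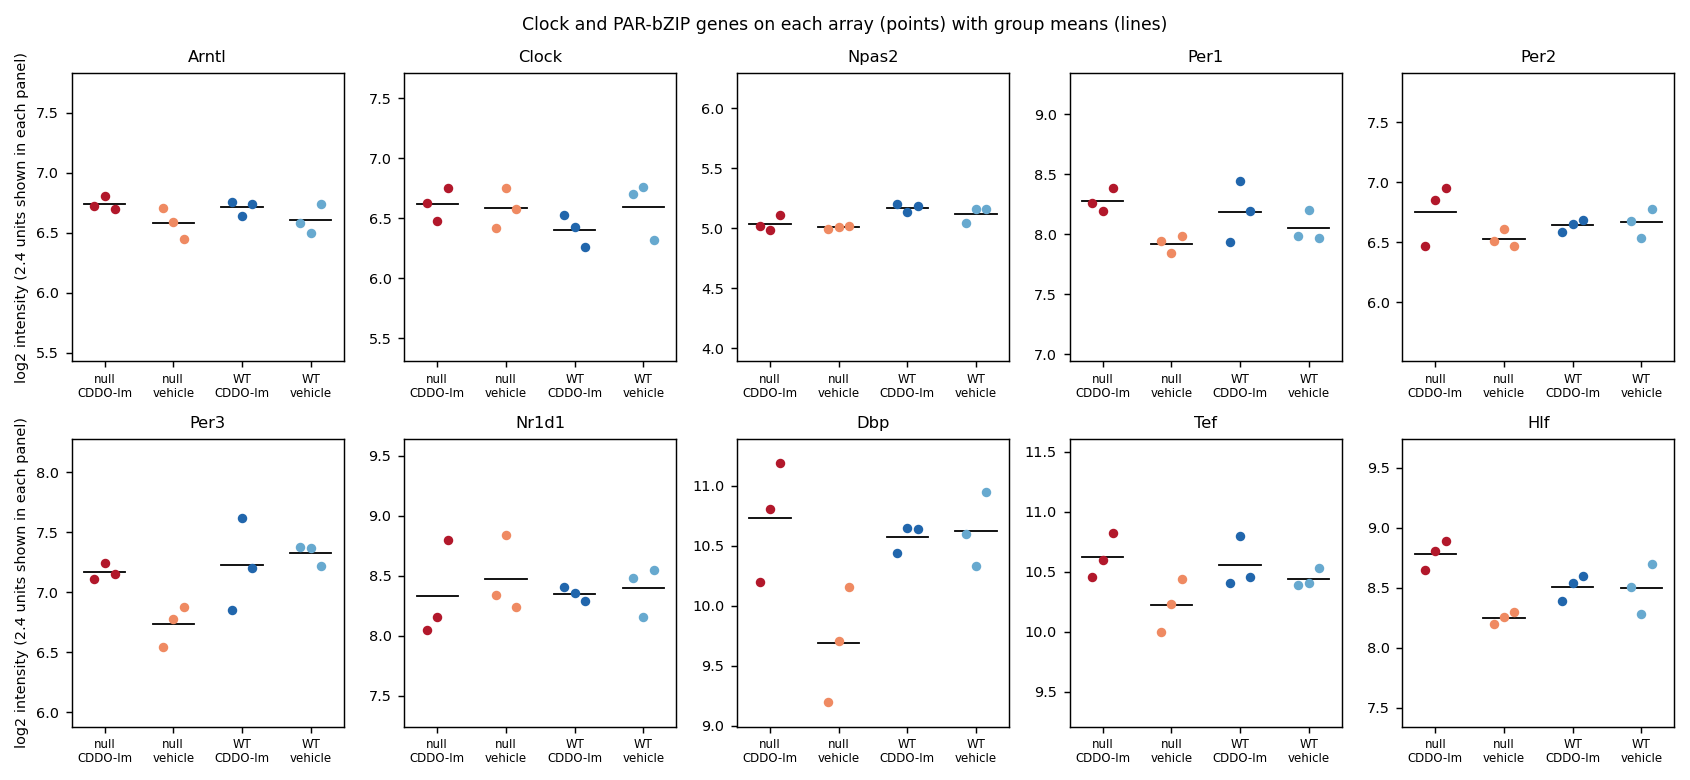
log2 intensity of the brightest probe set of each gene on each array (points) with the group mean (line), groups from left to right as Nrf2 null CDDO-Im, Nrf2 null vehicle, wild type (WT) CDDO-Im and wild type vehicle. Every panel spans 2.4 log2 units. Dbp has the widest range, from 9.20 to 11.19, and its 3 lowest arrays are the Nrf2 null vehicle arrays.

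Among the output factors, Dbp read 10.20, 10.81 and 11.19 in Nrf2 null livers with CDDO-Im, against 9.20, 9.71 and 10.16 with vehicle (log2 intensity). The lowest CDDO-Im array lay just above the highest vehicle array. In wild type livers it read 10.44, 10.65 and 10.64 with CDDO-Im, against 10.60, 10.33 and 10.95 with vehicle, and the groups overlapped. Group means were 10.73 ± 0.50 with CDDO-Im and 9.69 ± 0.48 with vehicle in Nrf2 null, and 10.58 ± 0.12 with CDDO-Im and 10.63 ± 0.31 with vehicle in wild type (SD, n = 3 each). The rise in Nrf2 null was 2.05-fold, a difference of 1.04 ± 0.26 (SE, limma adjusted p = 0.0414). In wild type the difference was -0.05, with a 95% interval of -0.63 to 0.52. The Dbp call rested on single arrays: its adjusted p was 0.106 and 0.154 without Nrf2 null vehicle replicate 2 or 1, 0.121 and 0.162 without Nrf2 null CDDO-Im replicate 2 or 3, and 0.0541 to 0.0587 without wild type vehicle replicate 1 or any wild type CDDO-Im array. With the 2 acinar-marked arrays left out it was 0.063.

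Hlf read 8.65, 8.81 and 8.89 in Nrf2 null livers with CDDO-Im, against 8.20, 8.26 and 8.30 with vehicle. The groups were well apart compared with the spread within them. Wild type livers read 8.39, 8.54 and 8.60 with CDDO-Im, against 8.51, 8.28 and 8.70 with vehicle, which overlapped. The rise in Nrf2 null was 1.45-fold, 0.53 ± 0.11 (SE, limma adjusted p = 0.0171), and the wild type difference was 0.01 (95% interval -0.22 to 0.25). The adjusted p in Nrf2 null was 0.0714 and 0.056 without Nrf2 null vehicle replicate 1 or 2, and 0.0628 and 0.0798 without Nrf2 null CDDO-Im replicate 2 or 3. With the 2 acinar-marked arrays left out it was 0.0157.

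Tef did not pass in either genotype. It read 10.46, 10.60 and 10.82 in Nrf2 null livers with CDDO-Im, against 10, 10.23 and 10.44 with vehicle, and 10.41, 10.80 and 10.46 in wild type livers with CDDO-Im, against 10.39, 10.41 and 10.53 with vehicle. The Nrf2 null groups were apart by a gap much smaller than the spread within either, and the wild type groups overlapped. The differences were 0.40 ± 0.13 in Nrf2 null (adjusted p = 0.109) and 0.11 ± 0.13 in wild type (adjusted p = 0.818). A second Tef probe set differed by 0.17 in Nrf2 null livers and 0.12 in wild type livers.

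The Per genes encode the repressors of the loop, and none of the 3 passed in either genotype. Per1 read 8.26, 8.19 and 8.38 in Nrf2 null livers with CDDO-Im, against 7.94, 7.84 and 7.98 with vehicle, without overlap, and differed by 0.36 ± 0.12 (adjusted p = 0.106). In wild type livers it read 7.93, 8.44 and 8.19 with CDDO-Im, against 7.98, 8.20 and 7.97 with vehicle, a difference of 0.14 with an interval of -0.12 to 0.39. Per3, whose window holds the 2 D-boxes, read 7.11, 7.24 and 7.15 in Nrf2 null livers with CDDO-Im, against 6.54, 6.78 and 6.88 with vehicle. These groups did not overlap, and the difference was 0.43 ± 0.16 (adjusted p = 0.139). Per3 in wild type livers read 6.85, 7.62 and 7.20 with CDDO-Im, against 7.38, 7.37 and 7.22 with vehicle, a difference of -0.10 (interval -0.44 to 0.24). Per2 read 6.47 to 6.95 in Nrf2 null with CDDO-Im, 6.47 to 6.61 in Nrf2 null with vehicle, 6.59 to 6.69 in wild type with CDDO-Im and 6.54 to 6.78 in wild type with vehicle. All 4 groups overlapped for Per2, and its differences were 0.22 in Nrf2 null (adjusted p = 0.323) and -0.02 in wild type.

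None of the activators passed in either genotype, nor did Nr1d1. Arntl averaged 6.74 ± 0.06 in Nrf2 null with CDDO-Im, 6.59 ± 0.13 in Nrf2 null with vehicle, 6.71 ± 0.07 in wild type with CDDO-Im and 6.61 ± 0.12 in wild type with vehicle (SD, n = 3 each). Its difference was 0.16 in Nrf2 null livers (95% interval -0.03 to 0.35) and 0.11 in wild type livers (-0.08 to 0.29). Clock, the partner of BMAL1, differed by 0.03 in Nrf2 null (-0.25 to 0.32) and by -0.19 in wild type (-0.47 to 0.10). Nr1d1, which represses Arntl, read 8.05, 8.16 and 8.80 in Nrf2 null with CDDO-Im, against 8.34, 8.84 and 8.24 with vehicle, and 8.41, 8.36 and 8.29 in wild type with CDDO-Im, against 8.48, 8.16 and 8.55 with vehicle. Its groups overlapped in both genotypes, with differences of -0.14 (-0.57 to 0.28) and -0.04 (-0.47 to 0.38). Npas2, which can stand in for Clock, averaged 5.04 ± 0.07 in Nrf2 null with CDDO-Im, 5.01 ± 0.01 in Nrf2 null with vehicle, 5.17 ± 0.03 in wild type with CDDO-Im and 5.12 ± 0.07 in wild type with vehicle (SD, n = 3 each). It lay below the array median on all 12 arrays, so the sizes of its differences are uncertain.

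Counted over the 10 genes, the Nrf2 null CDDO-Im arrays lay wholly above the Nrf2 null vehicle arrays for 5, namely Per1, Per3, Dbp, Tef and Hlf, where 11.6% of all genes did, and the same 5 had an unadjusted p under 0.05 (10.7% of all genes higher). Wild type CDDO-Im arrays lay wholly above or below the vehicle arrays for 0 of the 10, where 8.42% of all genes were apart with higher and 8.18% with lower values. Whether the effect of CDDO-Im differed between genotypes was tested by the interaction. None of the 10 passed, where 0.137% of all genes did, and 3 had an unadjusted p under 0.05 with the larger value in Nrf2 null (4.46% of all genes). These were Hlf, with a difference of effects of 0.52 ± 0.15 (unadjusted p = 0.00506, adjusted p = 0.383), Dbp with 1.09 ± 0.37 (adjusted p = 0.506) and Per3 with 0.53 ± 0.22 (adjusted p = 0.659). A difference between genotypes in the response was thus not called for any of the 10. Averaged over genotypes, 1 of the 10 passed, where 10.5% of all genes did: Hlf rose by 0.27 ± 0.08 (adjusted p = 0.0407), a call kept in 3 of the 12 fits that left out 1 array, those without wild type vehicle replicate 3, wild type CDDO-Im replicate 1 or Nrf2 null CDDO-Im replicate 1. In the other 9 fits its adjusted p was 0.0542 to 0.101.

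**Figure D2:**
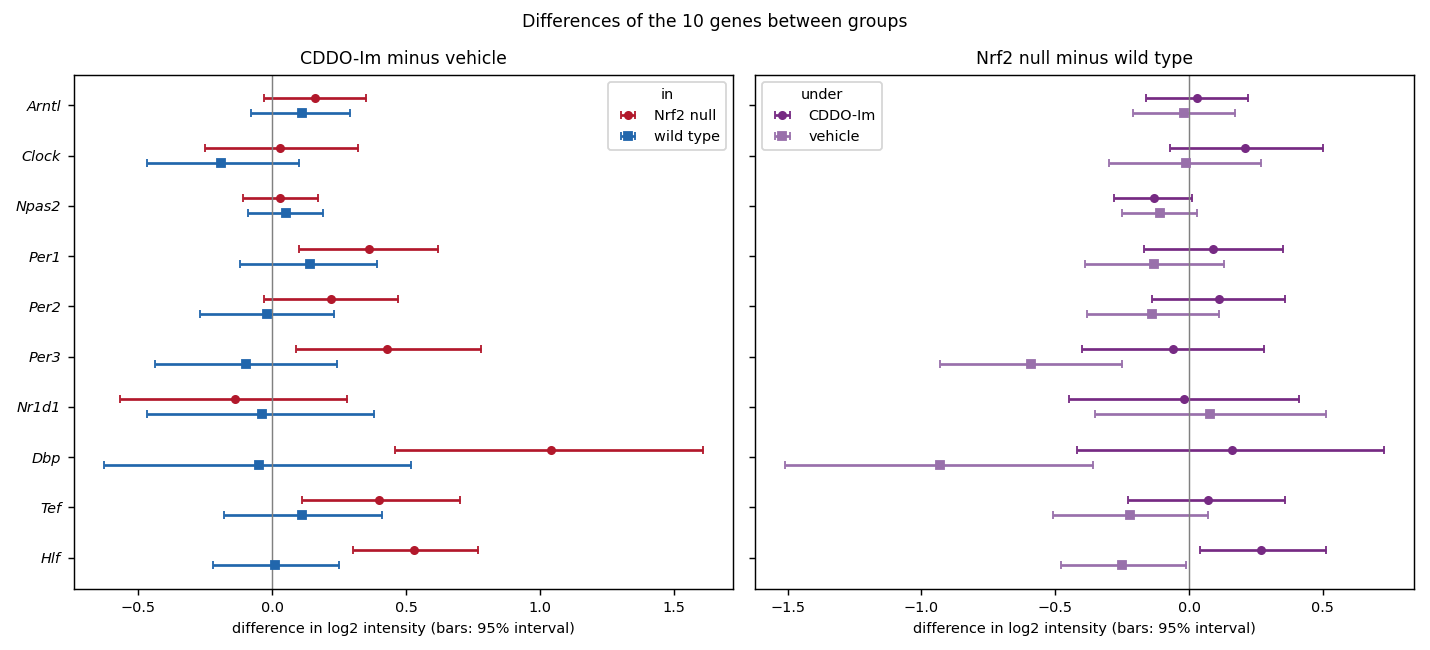
Differences in log2 intensity of each gene with 95% intervals from limma's fit. Left, CDDO-Im minus vehicle in Nrf2 null (circles) and wild type (squares), and right, Nrf2 null minus wild type under CDDO-Im (circles) and under vehicle (squares). In Nrf2 null the intervals of Per1, Per3, Dbp, Tef and Hlf lie above 0, and under vehicle those of Per3, Dbp and Hlf lie below 0.

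Nrf2 null livers were also set against wild type livers within each treatment. With vehicle 0 of the 10 passed limma's test, where 0.39% of all genes did. Dbp, Per3 and Hlf had an unadjusted p under 0.05 and lower values in Nrf2 null (8.08% of all genes). Their differences were -0.93 ± 0.26 (adjusted p = 0.16), -0.59 ± 0.16 (adjusted p = 0.135) and -0.25 ± 0.11 (adjusted p = 0.353). All 3 Nrf2 null vehicle arrays lay below the 3 wild type vehicle arrays for Dbp, Per3 and the dim Npas2, as for 8.49% of all genes, while those of Hlf overlapped by a single wild type array at 8.28. Markers of other cells differed in the same comparison. The mean of 8 stellate cell markers lay at 7.32 to 7.66 in Nrf2 null with vehicle, against 7.74 to 7.87 in wild type with vehicle, with a median difference of -0.31 and 4 of 8 lower at an unadjusted p under 0.05. Of 9 Kupffer cell markers 0 were above 0, with a median of -0.36. Neutrophil markers averaged 6.46 to 6.64 in Nrf2 null with vehicle, against 6.26 to 6.32 in wild type with vehicle. None of these markers was called, and their part in the result was not tested. With CDDO-Im 0 of the 10 passed (1.45% of all genes), and only Hlf had an unadjusted p under 0.05, with 0.27 ± 0.11 (adjusted p = 0.318), where 11.3% of all genes did. For Dbp the difference with CDDO-Im was 0.16, with an interval of -0.42 to 0.73. With CDDO-Im 1 of 9 Kupffer cell and 1 of 8 endothelial markers were called lower in Nrf2 null. The median differences of these lists were -0.05 and 0.07, and 3 endothelial markers were higher at an unadjusted p under 0.05. The part of these cells was not tested. The Nrf2 null vehicle arrays enter both of the comparisons in which Dbp, Per3 and Hlf stood out, so the 2 sets of differences share samples. The order of the group means of Dbp was Nrf2 null CDDO-Im, wild type vehicle, wild type CDDO-Im and Nrf2 null vehicle, of which the first 3 had overlapping arrays.

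Several members were read by more than 1 probe set, and these were fitted together over all 45037 probe sets other than controls. In that fit 3.58% of probe sets were called for CDDO-Im in Nrf2 null livers. The second Hlf probe set read 8.16, 8.73 and 8.82 in Nrf2 null with CDDO-Im, against 7.66, 7.71 and 7.89 with vehicle, and rose by 0.82 ± 0.16 (adjusted p = 0.0188). This call was lost without Nrf2 null vehicle replicate 1 or 2 or Nrf2 null CDDO-Im replicate 2 or 3 (adjusted p = 0.0674 to 0.0853). The second Dbp probe set read 9.42, 10.03 and 10.49 in Nrf2 null with CDDO-Im, against 8.18, 8.97 and 9.32 with vehicle. Its difference of 1.16 ± 0.29 had an adjusted p of 0.0535, and the brighter Dbp probe set had 0.0519 in the same fit. Both probe sets of each gene thus read higher on every CDDO-Im array than on every vehicle array of Nrf2 null livers.

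**Figure D3:**
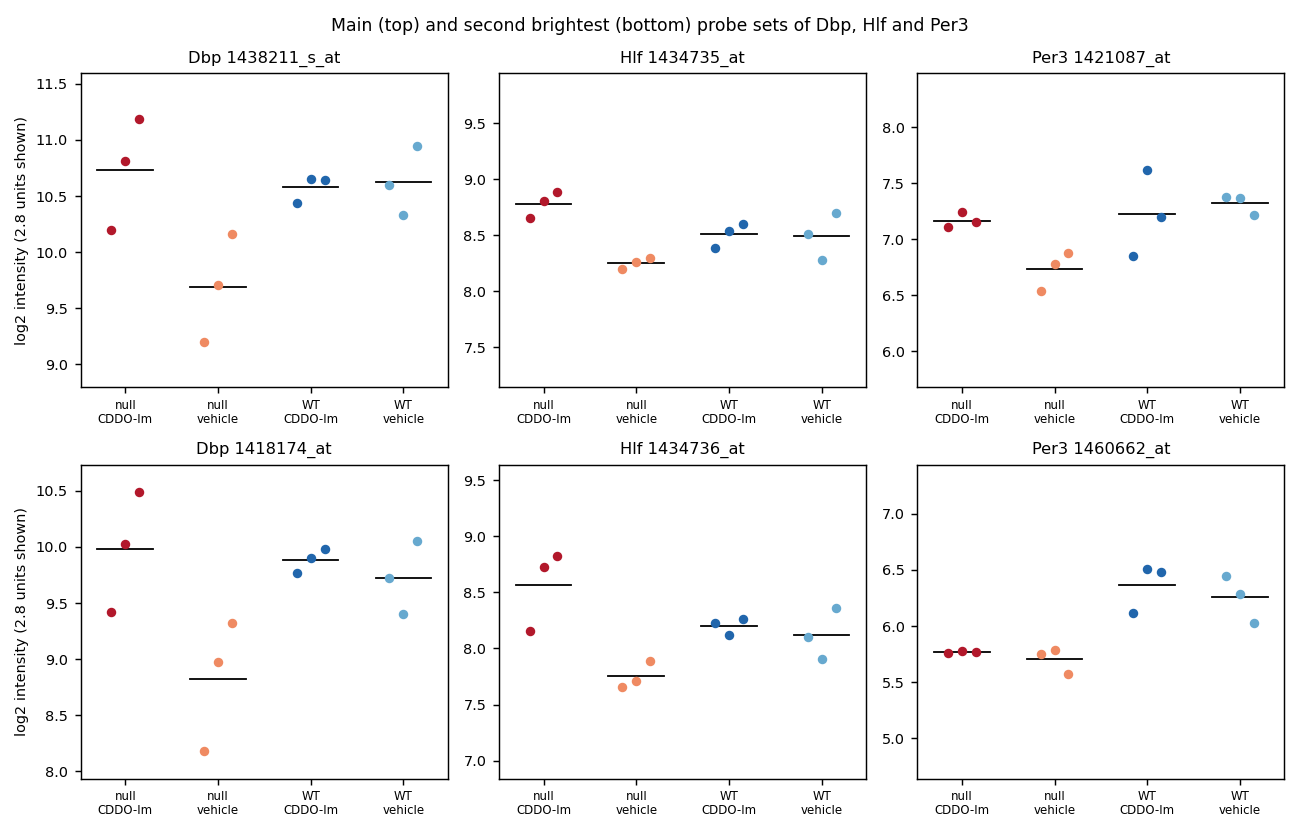
log2 intensity on each array (points) and group mean (line) for the brightest probe set (top row) and the second brightest (bottom row) of Dbp, Hlf and Per3, each panel spanning 2.8 log2 units. Dbp and Hlf have the same order of Nrf2 null groups in both rows, while the second Per3 probe set separates the 6 Nrf2 null arrays, at 5.57 to 5.79, from the 6 wild type arrays, at 6.03 to 6.51.

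The probe sets of the other members did not all give like values. In Nrf2 null livers the differences ran from 0.16 down to -0.01 over the 2 probe sets of Arntl, from 0.16 to -0.35 over the 4 of Clock, from 0.52 to -0.05 over the 3 of Per2 and from 0.40 to 0.00 over the 3 of Tef, and none passed. The second Npas2 probe set gave 0.16, against 0.03 for the brighter one, and did not pass. In wild type livers no member probe set passed. There CDDO-Im arrays lay wholly above vehicle arrays on the dimmest probe set of Per3 (0.30) and the third of Tef (0.15). These 2, the second of Npas2 and the second of Arntl lay below the array median on all 12 arrays. For Per3 the second probe set read 5.76, 5.78 and 5.77 in Nrf2 null with CDDO-Im and 5.75, 5.79 and 5.57 in Nrf2 null with vehicle, against 6.12, 6.51 and 6.48 in wild type with CDDO-Im and 6.45, 6.29 and 6.03 in wild type with vehicle. It was lower in Nrf2 null than in wild type livers under CDDO-Im, with a difference of -0.60 ± 0.12 (limma adjusted p = 0.0382, 1.04% of probe sets called), and under vehicle the difference was -0.56 ± 0.12 (adjusted p = 0.0916, 0.235% called). All 6 Nrf2 null arrays lay below their array medians on this probe set, so the sizes are uncertain. The call under CDDO-Im was lost without wild type vehicle replicate 2, wild type CDDO-Im replicate 2 or 3, Nrf2 null vehicle replicate 1 or 2, or any Nrf2 null CDDO-Im array (adjusted p = 0.0553 to 0.155), and with each array centred on its median (0.0557). Of 5 alternatives in processing or threshold 2 kept this call, with adjusted p up to 0.0623. The brightest Per3 probe set gave -0.06 under CDDO-Im, with an interval of -0.40 to 0.28, so the probe sets disagreed there. The remaining probe sets of Per3 lay near or below the array medians.

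Other genes of the clock loop were read as a list of 16 names, of which 13 were measured. Chrono, listed as not measured, is another name of the measured Ciart. None passed limma's test in any of the 6 comparisons. An unadjusted p under 0.05 was reached by 6 of the 13 in Nrf2 null livers (19.4% of all genes), 0 in wild type livers (13.6%) and 4 averaged over genotypes (22.7%). Between genotypes it was reached by 5 under CDDO-Im (11.3% of all genes) and 3 under vehicle (13.2%), and for the interaction by 2 (7.1%). In Nrf2 null livers 4 had an unadjusted p under 0.05 with higher values under CDDO-Im and 2 with lower, and the median difference of the 13 was 0.09. Nr1d2, which encodes REV-ERB beta, read 10.12, 9.98 and 10.27 in Nrf2 null with CDDO-Im, against 9.57, 9.54 and 9.88 with vehicle, without overlap. Its difference was 0.46 ± 0.14 (adjusted p = 0.0864), and in wild type livers 0.03 (adjusted p = 0.971). Under vehicle Nr1d2 was lower in Nrf2 null than in wild type with a difference of -0.56 ± 0.14 that did not pass (adjusted p = 0.128). Its lowest group mean was that of Nrf2 null with vehicle, as for every member but Clock and Nr1d1 on the brightest probe set. The share of all genes with this lowest group was not counted. Timeless differed by -0.32 in Nrf2 null livers (adjusted p = 0.0883). Nfil3, a repressor that binds the D-box, averaged 8.19 ± 0.23 in Nrf2 null with CDDO-Im, against 7.39 ± 0.35 in wild type with CDDO-Im (SD, n = 3 each), a difference of 0.81 ± 0.22 (adjusted p = 0.119). In the 12 fits that left out 1 array, 0 to 2 of the 13 were called for CDDO-Im in Nrf2 null livers.

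Liver genes known to cycle under clock or PAR-bZIP control were read as a list of 20, of which 17 were measured. In Nrf2 null livers 4 rose with CDDO-Im and 0 fell, where 3.58% of all genes were called higher, and the median difference of the 17 was 0.67 (-0.00 over all genes). For wild type livers 1 rose, where 1.82% of all genes were called in either direction, with a median of 0.36 (0.01 over all genes). Averaged over genotypes 7 rose, where 5.62% of all genes were called higher, with a median of 0.54 (-0.00 over all genes). With 1 array left out the counts were 0 to 7 in Nrf2 null, 0 to 5 in wild type and 4 to 7 averaged over genotypes. Wee1, a cell cycle kinase with E-boxes in its promoter, read 8.31, 8.72 and 8.72 in Nrf2 null with CDDO-Im, against 7.66, 7.88 and 7.92 with vehicle, and 8.57, 8.88 and 8.64 in wild type with CDDO-Im, against 7.85, 7.73 and 8.27 with vehicle. The groups did not overlap in either genotype. Wee1 rose by 0.76 in Nrf2 null (adjusted p = 0.0171), 0.74 in wild type (adjusted p = 0.0324) and 0.75 ± 0.11 averaged over genotypes (adjusted p = 0.00171). Its call in Nrf2 null was lost without Nrf2 null vehicle replicate 1 or 2 or Nrf2 null CDDO-Im replicate 2 or 3 (0.0522 to 0.0798). Its call in wild type was lost without wild type vehicle replicate 1 or 2, any wild type CDDO-Im array or Nrf2 null vehicle replicate 2 (0.0541 to 0.164), and with the compared arrays alone (0.106) or each array centred on its median (0.0507).

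Targets of the PAR-bZIP factors in mouse liver were among those that rose. Alas1, the first enzyme of heme synthesis, read 12.18, 11.67 and 11.56 in Nrf2 null with CDDO-Im, against 11.02, 10.40 and 11 with vehicle, and 12.08, 12.62 and 12.65 in wild type with CDDO-Im, against 11.48, 10.84 and 12 with vehicle. Its groups did not overlap in either genotype, and averaged over genotypes it was 2-fold higher with CDDO-Im (SE 0.20 on the log2 scale, adjusted p = 0.00836). Nr1i3, which encodes the xenobiotic receptor CAR, read 9.62, 9.70 and 9.94 in Nrf2 null with CDDO-Im, against 8.76, 9.28 and 8.91 with vehicle, and 10.40, 10.61 and 10.43 in wild type with CDDO-Im, against 9.75, 9.39 and 10.11 with vehicle. The CDDO-Im arrays lay above the vehicle arrays in both genotypes, and the rise averaged over genotypes was 0.75 ± 0.12 (adjusted p = 0.00325). In Nrf2 null it was 0.77 (adjusted p = 0.0264, and 0.0603 to 0.114 without Nrf2 null vehicle replicate 1 or 3 or Nrf2 null CDDO-Im replicate 2 or 3). Usp2, a rhythmic deubiquitinase, rose by 0.90 ± 0.20 averaged over genotypes (adjusted p = 0.0144). The averaged rises of Wee1, Alas1, Nr1i3 and Usp2 passed in each of the 12 fits that left out 1 array. For these 4 genes the interaction was between -0.02 and 0.29 and passed for none. Dbp differed by 0.49 averaged over genotypes and did not pass (limma adjusted p = 0.127). In wild type livers Dbp differed by -0.05 and Hlf by 0.01. Whether the PAR-bZIP factors had a part in the rises was not tested.

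**Figure D4:**
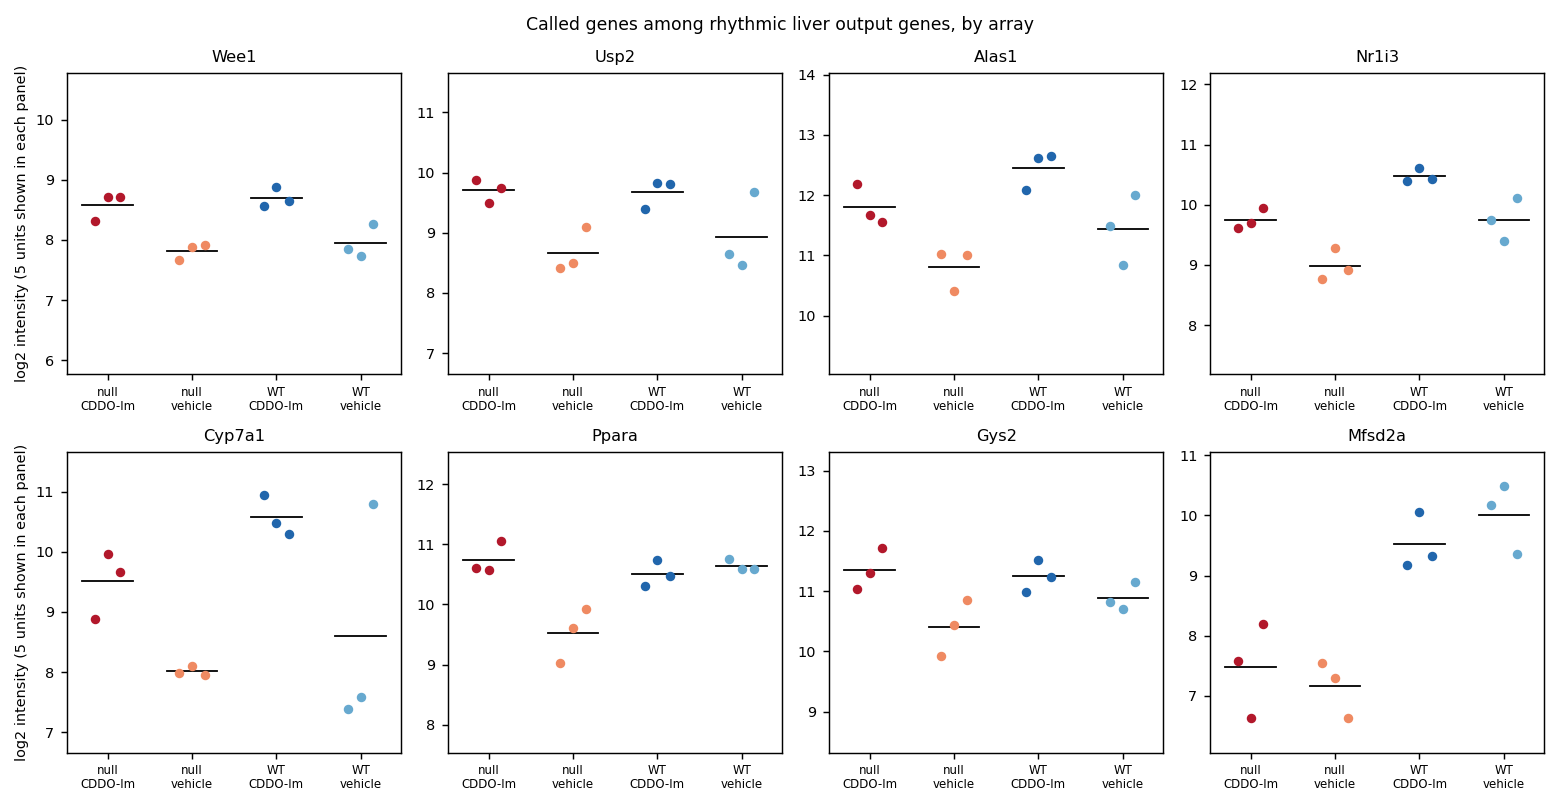
log2 intensity on each array (points) and group mean (line) for the 8 genes of the rhythmic liver list that passed in at least 1 comparison, each panel spanning 5 log2 units. Wee1 and Nr1i3 lie higher with CDDO-Im in both genotypes. Mfsd2a is lower on all 6 Nrf2 null arrays than on all 6 wild type arrays. Each of the 8 genes has its lowest group mean in Nrf2 null with vehicle.

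Ppara and Gys2 had their lowest mean in Nrf2 null with vehicle, as had every gene of this list that passed in a comparison. How these genes were called favours that order, and the share of all genes with it was not counted. Ppara, which encodes the receptor that drives fatty acid oxidation, read 10.60, 10.58 and 11.05 in Nrf2 null with CDDO-Im, against 9.03, 9.61 and 9.93 with vehicle, and 10.30, 10.73 and 10.48 in wild type with CDDO-Im, against 10.76, 10.59 and 10.59 with vehicle. All 3 Nrf2 null vehicle arrays lay below the other 9. The rise in Nrf2 null was 1.22 ± 0.20 (adjusted p = 0.0106, and 0.0546 without Nrf2 null CDDO-Im replicate 3). Nrf2 null was lower than wild type under vehicle, with a difference of -1.13 ± 0.20 (adjusted p = 0.0414), a call kept without wild type vehicle replicate 3, wild type CDDO-Im replicate 2, Nrf2 null vehicle replicate 3 or Nrf2 null CDDO-Im replicate 1 or 3 and lost without any other single array (0.057 to 0.158). For the interaction Ppara gave 1.37 ± 0.29 and did not pass (adjusted p = 0.167). Gys2, the liver glycogen synthase, rose by 0.95 ± 0.24 in Nrf2 null (adjusted p = 0.0381), a call lost in 6 of the 12 fits without 1 array: without Nrf2 null vehicle replicate 1 or 2, Nrf2 null CDDO-Im replicate 2 or 3, wild type vehicle replicate 1 or wild type CDDO-Im replicate 3 (0.0542 to 0.154). In wild type the Gys2 difference was 0.36 (adjusted p = 0.593). Averaged over genotypes Ppara rose by 0.54 (adjusted p = 0.0329) and Gys2 by 0.65 (adjusted p = 0.0279). Both of these calls were lost without wild type vehicle replicate 1 or 2, wild type CDDO-Im replicate 2 or 3, Nrf2 null vehicle replicate 2 or Nrf2 null CDDO-Im replicate 3, and that of Gys2 also without Nrf2 null vehicle replicate 1 or Nrf2 null CDDO-Im replicate 2 (0.0557 to 0.0804 for Ppara and 0.054 to 0.0726 for Gys2).

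Cyp7a1, the rate-limiting enzyme of bile acid synthesis, was the last of the 7 called for the average and is named after its values were seen. It read 8.89, 9.96 and 9.67 in Nrf2 null with CDDO-Im, against 7.99, 8.10 and 7.95 with vehicle. In wild type livers it read 10.94, 10.47 and 10.30 with CDDO-Im, against 7.39, 7.59 and 10.80 with vehicle, the high vehicle value being replicate 3, which also carried acinar transcripts. The averaged rise was 1.73 ± 0.48 (adjusted p = 0.0407). Without wild type vehicle replicate 3 it was 2.28 (adjusted p = 4.03e-06), without Nrf2 null CDDO-Im replicate 1 it was 1.89 (adjusted p = 0.0435), and without any other single array it did not pass (0.0666 to 0.0999). Mfsd2a, a lipid transporter of the same list, was lower in Nrf2 null than in wild type, with differences of -2.04 ± 0.40 under CDDO-Im (adjusted p = 0.0275) and -2.85 ± 0.40 under vehicle (adjusted p = 0.0132). The first of these calls was lost without wild type CDDO-Im replicate 2 or 3 or Nrf2 null CDDO-Im replicate 1 or 2 (0.0755 to 0.119), and the second without wild type vehicle replicate 1 (0.0619) or Nrf2 null vehicle replicate 2 (0.0511).

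Glucocorticoids also act on Per1, and 13 glucocorticoid response genes were measured. In Nrf2 null livers 1 rose and 1 fell, in wild type livers 0 rose and 1 fell, and averaged over genotypes 0 rose and 3 fell. Of all genes 5.9%, 1.82% and 10.5% were called in these comparisons in either direction, and with 1 array left out the counts of the list were 0 to 3, 0 to 3 and 2 to 4. Nr3c1, the glucocorticoid receptor, rose in Nrf2 null livers by 0.58 ± 0.14 (adjusted p = 0.0329), reading 8.94, 9.03 and 9.30 with CDDO-Im, against 8.36, 8.39 and 8.78 with vehicle. That call was lost without Nrf2 null vehicle replicate 1 or 2 or Nrf2 null CDDO-Im replicate 2 or 3 (0.0797 to 0.135), and with the 2 acinar-marked arrays left out (0.0697). In wild type livers Nr3c1 averaged 8.90 ± 0.16 with CDDO-Im, against 9.01 ± 0.16 with vehicle (SD, n = 3 each), and the groups overlapped. Nr3c1 had its lowest group mean in Nrf2 null with vehicle, as did most of the clock genes. The metallothionein Mt2 read 13.54, 12.79 and 12.12 in Nrf2 null with CDDO-Im, against 13.95, 13.76 and 13.94 with vehicle, and 11.63, 12.46 and 11.95 in wild type with CDDO-Im, against 13.71, 13.85 and 12.62 with vehicle. It fell by 1.23 ± 0.26 averaged over genotypes (adjusted p = 0.0112) and passed in each of the 12 fits without 1 array. Lcn2, an acute phase protein, fell by 4.91 averaged over genotypes (adjusted p = 0.00369) and also passed in each of the 12. The size of the fall varied between arrays. Lcn2 read 6.39 to 12.33 in Nrf2 null with CDDO-Im, against 13.66 to 13.70 with vehicle. In wild type it read 5.98 to 8.62 with CDDO-Im, against 11.73 to 13.70 with vehicle. Its differences were -4.43 in Nrf2 null (adjusted p = 0.048) and -5.38 in wild type (adjusted p = 0.0429), and each of these calls was lost in 9 of the 12 fits (0.0544 to 0.146 and 0.0615 to 0.19). The first was kept only without wild type vehicle replicate 3, wild type CDDO-Im replicate 1 or Nrf2 null CDDO-Im replicate 1, and the second only without wild type vehicle replicate 3 or Nrf2 null CDDO-Im replicate 1 or 2. Mt1 fell by 0.67 averaged over genotypes (adjusted p = 0.0392), kept only without wild type vehicle replicate 3 or Nrf2 null CDDO-Im replicate 1 (0.0635 to 0.102 otherwise). The median difference of the 13 was -0.06 in Nrf2 null livers and -0.17 in wild type livers.

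Profiles were compared across the 12 arrays. Pearson's r was 0.87 between Dbp and Tef, 0.83 between Dbp and Hlf and 0.76 between Tef and Hlf, and 0.82, 0.78 and 0.53 after each group's mean was subtracted. Pairs outside these factors reached like values: r was 0.79 between Per2 and Hlf, 0.78 between Per1 and Tef and 0.75 between Per2 and Dbp, and within groups 0.76 for Per2 and Hlf and 0.75 for Per1 and Per3. The 45 pairs of the 10 genes had a median r of 0.26, and Arntl and Clock had -0.52. These values describe 12 arrays that share groups and normalisation. Of all genes, the profiles most like Dbp were those of Msrb1 (r = 0.963), Dhrs3, Plpp3, Fnip2 and Cyp2c23 (0.949), and the most opposed were Cd8a (-0.963), Ctsl and Ifnlr1 (-0.934). The r with Dbp was above 0.8 for 2.07% of genes. The profiles most like Per1 were those of Acadsb (r = 0.930), Phf3, Fam120b, Hipk1 and Homer2 (0.871), and those most like Arntl were 1810064F22Rik (r = 0.924), Vps37d, Pkhd1l1, Rgs4 and Rtl3 (0.914).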

How the data were processed

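Per the submitters' processing notes the deposited values were made by RMA, with no version given. They are log2 intensities, 1 for each of 45101 probe sets on 12 arrays, and were used as deposited. Control probe sets (64) were left out. Gene names came from the platform annotation: 34945 probe sets named 1 gene, 932 several and 9160 none, and Entrez Gene ids matched 34741 of them to RefSeq without changing a symbol. Each gene was read by its brightest single-gene probe set, giving 18193 genes, with no filter on low signal. The 4 groups come from the labels. Differences and moderated p-values are from limma 3.58.1 in R 4.3.3, fitted with 1 mean per group over all 12 arrays (8 residual and 3.8078 prior degrees of freedom) and adjusted by Benjamini-Hochberg over all genes. A gene was called at an adjusted p under 0.05. No detection calls were used, and differences below an array's median are given as uncertain in size. The 10 genes, the lists and the alternatives were chosen with earlier results of these data known. All 10 genes were named, and of each list the called genes (at most 6 a comparison) or else the 2 with the smallest p. Single cell type markers were named after their values were seen. Alternatives left out arrays, changed the normalization, probe set rule, weights, variance model or threshold, or blocked on replicate number. The code was tested on simulated data. Motifs were searched in RefSeq promoter windows.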

Additional observations from a re-analysis of the deposited data

How the results depend on the processing

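For the effect of CDDO-Im in Nrf2 null livers, 2 clock genes were called. The count was 1 (Hlf) without both arrays with acinar transcripts, with each array centred on its median and with every probe set tested, 3 with the compared arrays alone (Per1, Per3 and Hlf), 4 with array weights (Per1, Dbp, Tef and Hlf), 0 at an adjusted p under 0.01, and 0 to 3 when 1 array was left out. Averaged over genotypes 1 was called. The count was 0 with quantile normalization, with trend and robust variances and at an adjusted p under 0.01, 4 with array weights, and 0 to 2 when 1 array was left out. Under vehicle, array weights called 2 (Per3 and Dbp) between genotypes, against 0. The counts in wild type, between genotypes under CDDO-Im and for the interaction were 0 under every alternative run. The cause of these changes was not tested, apart from the stricter threshold.

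Replicate numbers were not used to pair arrays, since what was left after subtracting each group's mean correlated weakly between same-numbered arrays. These correlations were 0.07, 0.07 and 0.28 between the Nrf2 null groups, and below 0 between several other pairs of groups. With the replicate number as a block, 2 clock genes (Dbp and Hlf) were called averaged over genotypes, against 1, and 2 in Nrf2 null livers, as without it.

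Over all genes 1074 were called in Nrf2 null livers, against 1897 with array weights, 97 at an adjusted p under 0.01 and 97 to 1615 with 1 array left out. In wild type 332 were called, against 1293 without the acinar-marked arrays, 110 with the compared arrays alone, 2023 with array weights, 109 at the stricter threshold and 104 to 1385 with 1 array left out. Averaged over genotypes 1903 were called, against 3280 with array weights, 726 at the stricter threshold and 1146 to 2630 with 1 array left out. Under CDDO-Im 263 were called between genotypes, against 411 without the acinar-marked arrays, 123 at the stricter threshold and 151 to 464 with 1 array left out. Under vehicle 71 were called, against 117 without the acinar-marked arrays, 18 with the compared arrays alone, 40 with median centring, 1477 with array weights, 16 at the stricter threshold and 19 to 219 with 1 array left out. For the interaction 25 were called, against 39 without the acinar-marked arrays, 89 with array weights, 15 at the stricter threshold and 15 to 46 with 1 array left out. The alternatives for second probe sets and for the other lists were chosen after seeing the data. Of the rhythmic liver list, single arrays left out gave 0 to 7 calls in Nrf2 null, against 4, 0 to 5 in wild type, against 1, and 4 to 7 averaged over genotypes, against 7. Under the other alternatives the Ppara call under vehicle was kept in 7 of 11 (adjusted p up to 0.132). Gys2 in Nrf2 null was kept in 7 of 11 (0.0583), Mfsd2a under CDDO-Im in 8 of 11 (0.0721) and Cyp7a1 averaged over genotypes in 7 of 10 (0.105). The averaged calls of Wee1, Alas1 and Nr1i3 were kept in 10 of 10. With every probe set tested 1611 were called in Nrf2 null, 549 in wild type, 3285 averaged over genotypes, 467 between genotypes under CDDO-Im and 57 for the interaction. Of 1354 values of the 10 clock genes over 23 alternatives, 1249 kept direction and side of the threshold, 30 lost and 14 gained a call, 0 called differences turned round and 61 uncalled differences changed sign. Most of these values were of uncalled differences. The 30 losses all fell on Dbp and Hlf in Nrf2 null and Hlf averaged over genotypes, the only calls of the main fit. Dbp was kept in 4 of 12 fits without 1 array and 6 of 11 other alternatives. Hlf was kept in 8 of 12 and 10 of 11 in Nrf2 null, and in 3 of 12 and 7 of 10 averaged over genotypes. The number of arrays limits precision.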
